A study of Capra hircus with 25 samples.

Results

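MicroRNAs (miRNAs), short RNAs that pair with messenger RNAs and repress them, were measured in the liver of Laiwu black goat kids, and the entries of miR-33 and miR-378 are described here across 5 ages. They were taken by number, as every entry of the miRNA table named miR-33 or miR-378, with any prefix, letter or arm. These numbers were chosen with earlier results of these data known. The table gave 6 such entries of 463: both arms of miR-378, both arms of miR-33a and both arms of miR-33b. An arm, 5p or 3p, is the strand cut from the left or the right side of the hairpin precursor. All 6 carried goat names (miR-378-3p, for example, is listed as chi-miR-378-3p), and 1 copy of each was listed.

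The 25 libraries were made from frozen liver, 5 at each age: 1 day after birth, then 2 weeks, 4 weeks, 8 weeks and lastly 12 weeks. Age was the only variable in the labels, which name no treatment, sex, genotype or diet. Whether the libraries of 1 age are separate animals is not stated in the labels, and the p-values below therefore reflect spread among libraries that could be partly technical. Values are normalised reads (RPM), the reads of a miRNA scaled to a common library total.

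miR-33a and miR-33b lie within the genes of the sterol regulators SREBF2 and SREBF1, the transcription factors that turn on cholesterol and fatty acid synthesis. miR-33 represses ABCA1, the pump that exports cholesterol from cells, and enzymes of fatty acid oxidation such as CPT1A and CROT, and rodents carry only the SREBF2 copy. miR-378 lies within PPARGC1B, which encodes the coactivator PGC-1β of mitochondrial biogenesis. In mouse the 3p arm represses CRAT, an enzyme of mitochondrial acyl transfer, and the 5p arm represses MED13, a subunit of the Mediator complex. The goat RefSeq annotation (assembly ARS1.2) places MIR33A in SREBF2, MIR33B in SREBF1 and MIR378 in PPARGC1B, with 1 spanning gene each. No messenger RNA was measured in these libraries, so neither hosts nor targets have a value here.

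An estimated 7169720 to 12097286 miRNA reads lay behind each library, with a median of 9526624, so that 1 read was worth between 0.0838 and 0.142 RPM. A value of 0 therefore allows up to 3 reads, or 0.251 to 0.425 RPM depending on the library, and these limits cover counting error only. miR-122, the main hepatocyte miRNA, had 168623 ± 23248 RPM at 12 weeks and 158013 ± 15465 RPM at 1 day (SD, n = 5 each). The hepatocyte list (miR-122, miR-192 and miR-194) summed to 191256 to 262606 RPM at 12 weeks and 195622 to 231721 RPM at 1 day. 4-week replicate 2 stood apart, with the lowest hepatocyte sum of its age (158297 RPM) and the highest sum of the mesenchymal list (257063 RPM, against 97850 to 110196 RPM in the other 4 libraries of 4 weeks). An earlier analysis of these data saw 4-week replicates 1 and 2 apart from the rest, and values at 4 weeks are therefore given with and without them.

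The members differed widely in level. miR-378-3p was the most abundant, at 797 RPM over all 25 libraries, which ranked 77 of 463 entries and made up 0.0786% of all values. Its partner arm miR-378-5p averaged 17.4 RPM and ranked 243. The miR-33 arms were scarce: miR-33a-5p averaged 5.07 RPM (rank 314), miR-33a-3p 2.75 RPM (rank 341), miR-33b-5p 1.67 RPM (rank 363) and miR-33b-3p 0.874 RPM (rank 392). Over the 5 libraries of an age, miR-33b-5p rested on an estimated 32 to 193 reads and miR-33b-3p on 21 to 84 reads. miR-33a-5p and miR-33b-5p share their seed, the bases that select targets. The sources used here do not give how reads that match both were counted, and the division of reads between the a and b forms is uncertain for that reason.

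All 6 entries passed the filter on low values (at least 1 RPM in at least 5 libraries). miR-33b-3p reached 1 RPM in 7 libraries, among them all 5 of 1 day, and miR-33b-5p in 12 libraries, again with all 5 of 1 day. Outside 1 day miR-33b-3p reached 1 RPM in only 2 libraries, so it passed the filter through the age where it was high, and its calls against 1 day are conditioned on that. Tests were run with limma on log2(RPM + 1) over all 405 miRNAs that passed, and calls were made at an adjusted p (Benjamini-Hochberg) under 0.05. Changes on this scale understate those of scarce miRNAs, so ratios of mean RPM are given beside those of 12 weeks.

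In the deposited scaling the typical miRNA shifted downward with age, which touches each comparison. Whether the scaling or a fall of most miRNAs lies behind this shift was not tested. The median change of all 405 tested miRNAs against 1 day was −0.19 at 2 weeks, −0.26 at 4 weeks, −0.41 at 8 weeks and −0.54 at 12 weeks on the log2 scale. After median-ratio scaling, which centres the typical miRNA, the same medians lay between −0.04 and 0.01. At 12 weeks against 1 day the deposited scaling called 47 miRNAs higher and 222 lower, and median-ratio scaling called 117 higher and 132 lower. The 12-week change of each entry is therefore also given relative to the median of all.

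miR-378-3p, the more abundant arm of the PPARGC1B hairpin, was highest at 1 day. At 1 day its 5 libraries held 937, 1139, 1457, 1202 and 984 RPM. At 2 weeks they held 1014, 578, 725, 773 and 778 RPM. At 4 weeks they held 698, 632, 936, 961 and 883 RPM. 1 library of 2 weeks (replicate 1) and 1 of 4 weeks (replicate 4) lay within the range of 1 day, and the others lay below it. At 8 weeks the values were 512, 786, 683, 500 and 660 RPM, all below every 1-day library, as in 34.1% of all tested miRNAs at that age. At 12 weeks they were 546, 607, 398, 988 and 557 RPM. 4 of the 12-week libraries lay below every 1-day library, and replicate 4 lay within the 1-day range. Means ± SD (n = 5 each) were 1144 ± 206 RPM at 1 day, 774 ± 157 RPM at 2 weeks, 822 ± 148 RPM at 4 weeks, 628 ± 122 RPM at 8 weeks and 619 ± 220 RPM at 12 weeks.

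The order of these means ran 1 day, 4 weeks, 2 weeks, 8 weeks, 12 weeks from high to low. Means at 4 and 2 weeks differed by less than 1 SD, as did those at 12 and 8 weeks. At 12 weeks miR-378-3p was lower than at 1 day by a log2 change of −0.93 ± 0.19 (SE; adjusted p = 0.000156, limma), and the mean at 1 day was 1.85 times that at 12 weeks. At 8 weeks the change was −0.87 ± 0.19 (adjusted p = 0.000517, limma). Against 1 day, 66.4% of all tested miRNAs were called at 12 weeks (54.8% lower) and 62.2% at 8 weeks (49.1% lower), so being called lower was common. The change of miR-378-3p ranked 135 of 405 in size of decrease at 12 weeks and was −0.39 relative to the median of all. After median-ratio scaling the change at 12 weeks was −0.35 (adjusted p = 0.0865, limma) and after TMM scaling −0.32 (adjusted p = 0.119, limma), so the call at 12 weeks rests on the deposited scaling. At 8 weeks the change was −0.45 after median-ratio scaling (adjusted p = 0.0363) and −0.41 after TMM scaling, where the call was lost (adjusted p = 0.0611, limma, range over 19 alternatives 0.000317 to 0.0611). Over 20 alternatives the adjusted p at 12 weeks ranged between 7.67e-06 and 0.119.

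At the earlier ages miR-378-3p did not pass the test. The change was −0.57 ± 0.19 at 2 weeks (adjusted p = 0.0619, limma), where 5.68% of all tested miRNAs were called, and −0.48 ± 0.19 at 4 weeks (adjusted p = 0.0540, limma), where 36.8% were called. Without 2-week replicate 1, the high library of its age, the 2-week change was −0.67 and passed (adjusted p = 0.0391, limma, range over 19 alternatives 0.0391 to 0.270). At 4 weeks the entry passed without 4-week replicate 3 (−0.53, adjusted p = 0.0443), without 4-week replicate 4 (−0.54, adjusted p = 0.0415) and without 1-day replicate 1 (−0.55, adjusted p = 0.0467, limma). With 4 weeks reduced to replicates 3, 4 and 5 the 4-week change was −0.29 (adjusted p = 0.361, limma, range over 20 alternatives 0.0303 to 0.437).

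miR-378-5p, the scarcer arm, which represses the estrogen-related receptor ERRγ and GABPA in human breast cancer cells, was also highest at 1 day. There it had 23.7, 23.8, 37.4, 20.7 and 21.2 RPM. At 8 weeks it had 10.4, 13.4, 15.4, 10.1 and 16.7 RPM, and at 12 weeks 12.4, 18.5, 9.57, 16.6 and 8.99 RPM. All 10 libraries of 8 and 12 weeks lay below every 1-day library. Libraries of 2 weeks spanned 10.5 to 27.4 RPM and those of 4 weeks 9.92 to 26.8 RPM, and both overlapped 1 day. The log2 change was −0.91 ± 0.25 at 12 weeks (adjusted p = 0.00273) and −0.88 ± 0.25 at 8 weeks (adjusted p = 0.00441, limma). All 5 later libraries lay below 1 day in 34.1% of all tested miRNAs at 8 weeks and in 44.7% at 12 weeks. Relative to the median of all the 12-week change was −0.37, and the mean at 1 day was 1.92 times that at 12 weeks. After median-ratio scaling neither change passed (−0.36 at 12 weeks, adjusted p = 0.155, and −0.49 at 8 weeks, adjusted p = 0.0648, limma). At 2 weeks the change was −0.63 ± 0.25 (adjusted p = 0.121) and at 4 weeks −0.45 ± 0.25 (adjusted p = 0.148, limma). Without 4-week replicates 1 and 2 the 4-week change was −0.14 (adjusted p = 0.733, limma, range over 20 alternatives 0.0716 to 0.733). Without 2-week replicate 1 the 2-week change was −0.82 and passed (adjusted p = 0.0409, limma, range over 19 alternatives 0.0409 to 0.289).

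**Figure D1:**
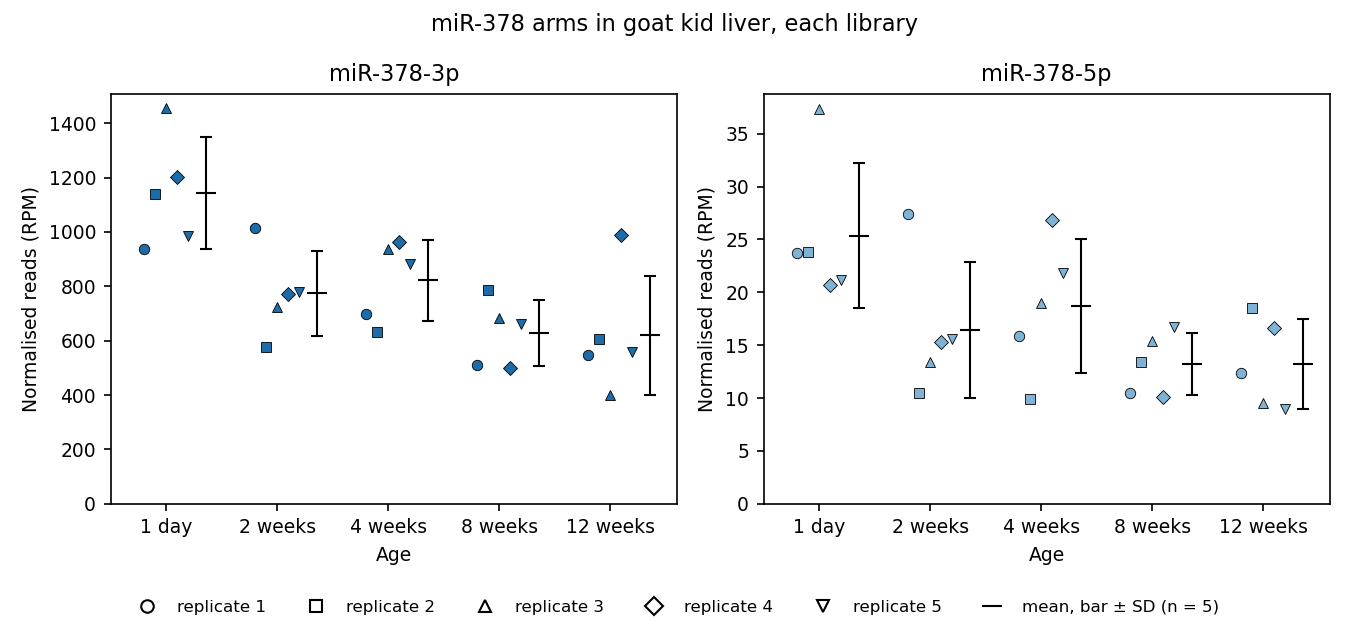
Normalised reads (RPM) of miR-378-3p (left) and miR-378-5p (right) in each of the 25 liver libraries by age, with a symbol per replicate number and the mean ± SD (n = 5) beside each age. Both arms are highest at 1 day (means 1144 and 25.3 RPM) and lowest at 8 and 12 weeks, and 12-week replicate 4 (988 RPM, left) lies within the 1-day range.

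The 3p arm of miR-378 outnumbered the 5p arm in every library. It held 97.8% ± 0.56 of the reads of both arms at 12 weeks and 97.8% ± 0.33 at 1 day (SD, n = 5 each), and between 97.04% and 98.5% in any of the 25 libraries. The log2 ratio of miR-378-3p to miR-378-5p within a library was 5.43 ± 0.37 at 12 weeks and 5.46 ± 0.23 at 1 day, a difference of −0.02 (exact two-sided permutation test over 252 arrangements, p = 0.952). A ratio within a library does not depend on how that library was scaled, apart from the 1 RPM added to each term. It shows unequal change between its terms and nothing of either term alone.

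miR-33a-5p, the main arm of the SREBF2 hairpin and the arm that represses ABCA1, was lower at every later age than at 1 day. At 1 day it had 13.7, 12.1, 5.10, 10.6 and 6.98 RPM. At 2 weeks it had 5.41, 3.17, 6.69, 1.72 and 4.95 RPM, and at 4 weeks 3.17, 3.75, 6.07, 6.83 and 5.26 RPM. At 8 weeks it had 2.37, 2.41, 2.56, 5.14 and 2.40 RPM, and at 12 weeks 5.13, 1.76, 4.50, 3.45 and 1.61 RPM. Every later age overlapped 1 day, in each case through 1-day replicate 3 (5.10 RPM), and the other 4 libraries of 1 day lay above all 20 later ones. 1-day replicate 3 was also the shallowest library, with an estimated 7169720 miRNA reads. Means ± SD (n = 5 each) were 9.68 ± 3.57 RPM at 1 day, 4.39 ± 1.95 RPM at 2 weeks, 5.02 ± 1.54 RPM at 4 weeks, 2.98 ± 1.21 RPM at 8 weeks and 3.29 ± 1.58 RPM at 12 weeks. Means at 4 and 2 weeks, and at 12 and 8 weeks, differed by less than 1 SD.

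The log2 change of miR-33a-5p was −1.33 ± 0.30 at 12 weeks (adjusted p = 0.000342) and −1.40 ± 0.30 at 8 weeks (adjusted p = 0.000323, limma), and the mean at 1 day was 2.94 times that at 12 weeks. Both changes stayed called after median-ratio scaling (−0.85 and −1.04) and TMM scaling (−0.83 and −1.01). Relative to the median of all miRNAs the 12-week change was −0.79, and it ranked 76 of 405 in size of decrease. At 2 weeks the change was −1.0 ± 0.30 (adjusted p = 0.0425, limma), which ranked 8, and at 4 weeks −0.80 ± 0.30 (adjusted p = 0.0400, limma).

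The calls of miR-33a-5p at 2 and 4 weeks depended on single libraries. The 2-week call was lost on leaving out 1-day replicate 1 (−0.87, adjusted p = 0.112), 1-day replicate 2 (−0.91, 0.0975), 1-day replicate 4 (−0.96, 0.0722), 2-week replicate 2 (−0.93, 0.0837) or 2-week replicate 4 (−0.78, 0.142, all limma). The 4-week call was lost on leaving out 1-day replicate 1 (−0.66, adjusted p = 0.107), 1-day replicate 2 (−0.71, 0.0900), 1-day replicate 4 (−0.75, 0.0663), 4-week replicate 1 (−0.67, 0.106) or 4-week replicate 2 (−0.72, 0.0890, all limma). With 4 weeks reduced to replicates 3, 4 and 5 the change was −0.53 (adjusted p = 0.276, limma). After median-ratio scaling neither was called (−0.81 at 2 weeks, adjusted p = 0.0959, and −0.57 at 4 weeks, adjusted p = 0.145, limma). Over all alternatives the adjusted p ranged between 0.0176 and 0.142 at 2 weeks and between 0.0118 and 0.276 at 4 weeks.

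miR-33a-3p, the other arm of the same hairpin, did not pass the test at any age. It had 4.73, 1.59, 2.93, 1.57 and 2.19 RPM at 12 weeks, against 2.62, 4.66, 3.82, 3.28 and 3.10 RPM at 1 day. 12-week replicate 1 was the highest of all 25 libraries, and the other 4 libraries of 12 weeks lay in or below the lower part of the 1-day range. The log2 change was −0.37 ± 0.21 at 12 weeks (adjusted p = 0.126), −0.38 ± 0.21 at 8 weeks (adjusted p = 0.121) and −0.38 ± 0.21 at 2 weeks (adjusted p = 0.246, all limma). The 4-week change was −0.29 ± 0.21 (adjusted p = 0.275, limma), and −0.25 with 4 weeks reduced to replicates 3, 4 and 5 (adjusted p = 0.501, limma, range over 19 alternatives 0.203 to 0.817). Relative to the median of all the 12-week change was 0.17, and the mean at 1 day was 1.34 times that at 12 weeks. Its direction at 12 weeks turned after median-ratio scaling (0.06) and TMM scaling (0.08), and without 12-week replicate 1 the change was −0.56 and passed (adjusted p = 0.0186, limma, range over 19 alternatives 0.0186 to 0.836). The F test over the 5 ages gave an adjusted p of 0.390 (limma).

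miR-33b-5p, the main arm of the SREBF1 hairpin, had the largest changes of the 6 entries at 2, 4 and 12 weeks. At 1 day it had 5.87, 6.18, 1.98, 2.56 and 4.78 RPM. At 2 weeks it had 1.33, 0.26, 2.77, 0.51 and 3.25 RPM, and at 4 weeks 0.61, 0.48, 0.57, 0.72 and 1.67 RPM. At 8 weeks it had 1.78, 0.36, 1.07, 0.84 and 0.92 RPM, and at 12 weeks 1.11, 0.42, 0.79, 0.94 and 0 RPM. All 15 libraries of 4, 8 and 12 weeks lay below every 1-day library, and the 2-week libraries overlapped 1 day through replicates 3 and 5. The same held for 17% of all tested miRNAs at 4 weeks, 34.1% at 8 weeks and 44.7% at 12 weeks. No read was listed in 12-week replicate 5, which allows up to 0.346 RPM. Means ± SD (n = 5 each) were 4.27 ± 1.91 RPM at 1 day, 1.62 ± 1.34 RPM at 2 weeks, 0.810 ± 0.488 RPM at 4 weeks, 0.994 ± 0.513 RPM at 8 weeks and 0.652 ± 0.445 RPM at 12 weeks. The means of 4, 8 and 12 weeks lay within 1 SD of each other.

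The log2 change of miR-33b-5p was −1.64 ± 0.31 at 12 weeks (adjusted p = 5.59e-05), −1.35 ± 0.31 at 8 weeks (adjusted p = 0.000694) and −1.49 ± 0.31 at 4 weeks (adjusted p = 0.000794, all limma). An estimated 32 reads over the 5 libraries of 12 weeks stood against 193 reads at 1 day, and the mean RPM at 1 day was 6.56 times that at 12 weeks. The 4-week decrease ranked 3 of 405 and was −1.23 relative to the median of all, and the 12-week decrease ranked 38 and was −1.10. Median-ratio scaling left it called at 12 weeks (−1.32), 8 weeks (−1.06) and 4 weeks (−1.29), and so did TMM scaling (−1.30, −1.04 and −1.27). With 4 weeks reduced to replicates 3, 4 and 5 the 4-week change was −1.36 and remained called (adjusted p = 0.0132, limma, range over 19 alternatives 0.000317 to 0.0132).

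At 2 weeks miR-33b-5p changed by −1.08 ± 0.31 (adjusted p = 0.0379, limma), a call lost without 1-day replicate 1 (−0.97, adjusted p = 0.0962), 1-day replicate 2 (−0.95, 0.0975), 1-day replicate 5 (−1.03, 0.0736), 2-week replicate 2 (−0.86, 0.0898) or 2-week replicate 4 (−0.92, 0.122, all limma). It was also lost after median-ratio scaling (−0.89, adjusted p = 0.0893, limma). Over 18 alternatives its adjusted p ranged between 0.0131 and 0.122.

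miR-33b-3p was the scarcest entry and was near the level of a few reads after 1 day. At 12 weeks it had 0.80, 0.75, 0.23, 0.63 and 0.12 RPM, against 1.05, 1.62, 4.25, 1.54 and 1.68 RPM at 1 day. At 4 weeks it had 0.92, 0.12, 0.23, 0.41 and 0.60 RPM. The libraries of 12 weeks and of 4 weeks all lay below every 1-day library, as in 44.7% and 17% of all tested miRNAs, whereas 8 weeks (0 to 1.11 RPM) and 2 weeks (0.61 to 1.38 RPM) overlapped it. The log2 change was −0.95 ± 0.23 at 12 weeks (adjusted p = 0.000776), −0.99 ± 0.23 at 8 weeks (adjusted p = 0.000831), −1.0 ± 0.23 at 4 weeks (adjusted p = 0.00217) and −0.61 ± 0.23 at 2 weeks (adjusted p = 0.10, all limma). Relative to the median of all the 12-week change was −0.41, and the mean at 1 day was 4.01 times that at 12 weeks. These p-values are conditioned on the filter, which the entry passed through 1 day. A fit with no filter must give the same 12-week change, since the filter does not enter it, and its adjusted p was 0.000623 (limma). The 4-week change without 4-week replicates 1 and 2 was −1.03 (adjusted p = 0.00896, limma, range over 19 alternatives 0.00137 to 0.00923). 1-day replicate 3 set much of the 1-day mean of 2.03 ± 1.27 RPM (SD, n = 5), and without it the 12-week change was −0.73 (adjusted p = 0.00410, limma, range over 19 alternatives 0.000425 to 0.0148).

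**Figure D2:**
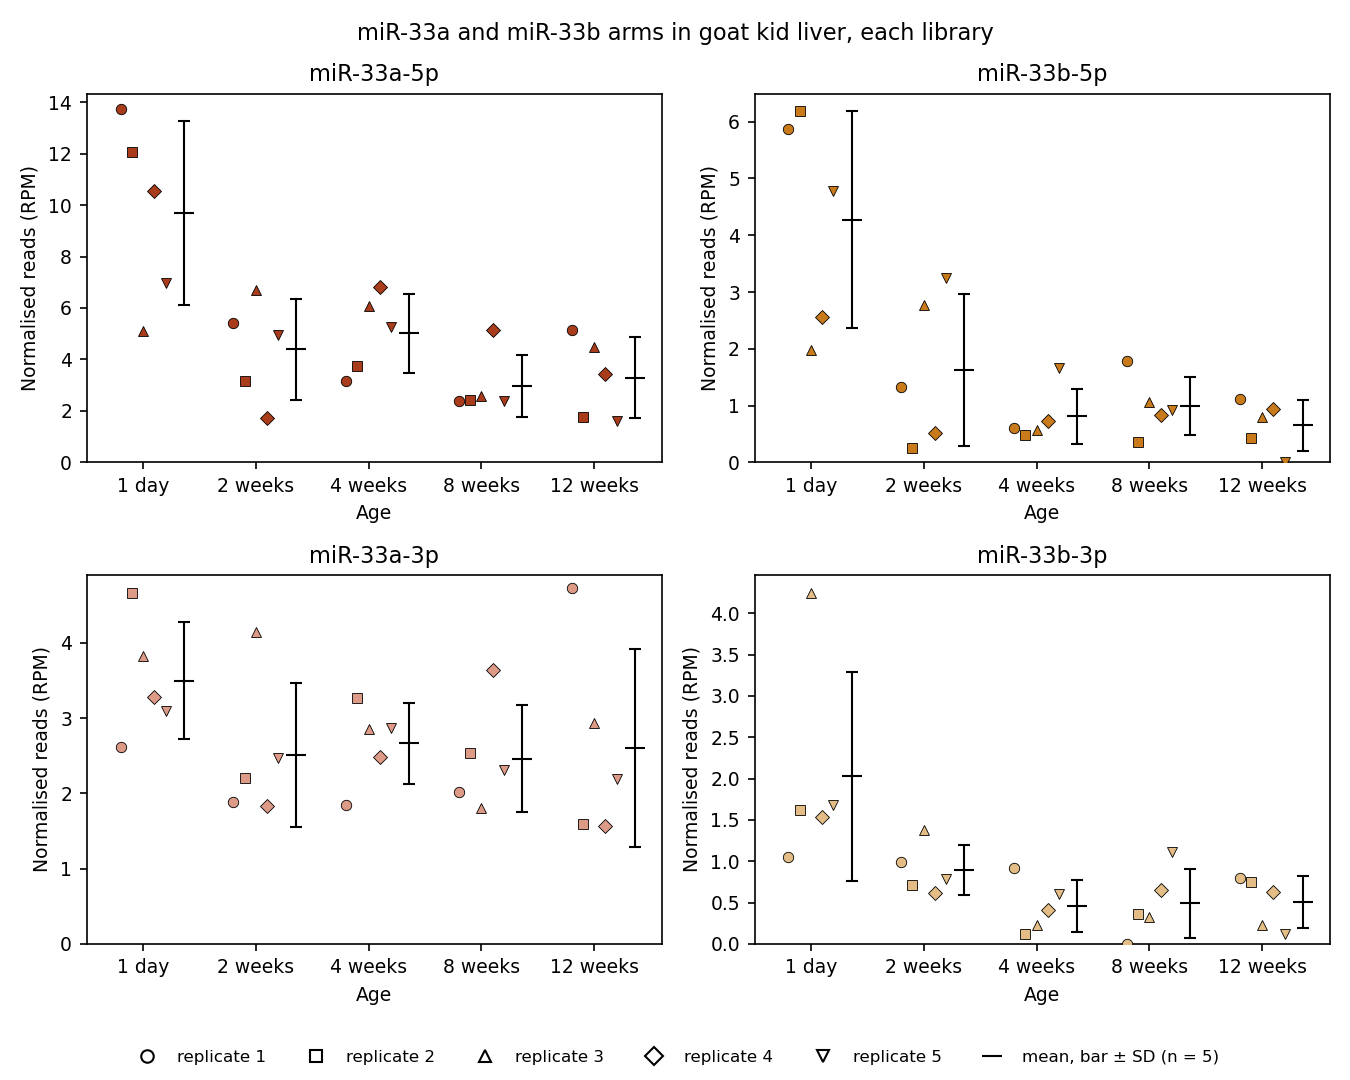
Normalised reads (RPM) of the 5p (top) and 3p (bottom) arms of miR-33a (left) and miR-33b (right) in each of the 25 libraries by age, with a symbol per replicate number and the mean ± SD (n = 5). All libraries of miR-33b-5p at 4, 8 and 12 weeks lie below its lowest 1-day library (1.98 RPM), miR-33a-5p overlaps 1 day through 1-day replicate 3 (5.10 RPM), and miR-33a-3p has overlapping ages throughout.

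The F test over the 5 ages called miR-33b-5p (adjusted p = 0.000365), miR-378-3p (0.00103), miR-33a-5p (0.00123), miR-33b-3p (0.00155) and miR-378-5p (0.0151, all limma), where 64.7% of all tested miRNAs were called. The call of miR-33b-3p is conditioned on the filter, which the entry passed through 1 day. With no filter its adjusted p was 0.00123 (limma). After median-ratio scaling the F test no longer called miR-378-3p (adjusted p = 0.174) or miR-378-5p (0.251, limma), and without 1-day replicate 3 the adjusted p of miR-378-5p was 0.0589 (limma). Over the alternatives the adjusted p of miR-378-3p ranged between 7.07e-05 and 0.248 and that of miR-378-5p between 0.00431 and 0.320.

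Neighbouring later ages were compared with each other as well. At 4 weeks against 2 weeks limma called 0 of the 6 entries, where 2.96% of all tested miRNAs were called, and 0 had an unadjusted p under 0.05. At 8 weeks against 4 weeks it called 0 of 6 (background 6.91%), with 0 at an unadjusted p under 0.05 and a lowest adjusted p of 0.186. At 12 weeks against 8 weeks it called 0 of 6 (background 1.23%), again with 0 at an unadjusted p under 0.05. The widest of these step changes was that of miR-33a-5p at 8 weeks against 4 weeks, −0.60 ± 0.30 on the log2 scale.

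With 4 weeks reduced to replicates 3, 4 and 5, both miR-378 arms were lower at 8 weeks than at 4 weeks. miR-378-3p averaged 628 RPM at 8 weeks and 927 RPM in those 3 libraries (log2 change −0.58 ± 0.22, adjusted p = 0.0473), and miR-378-5p averaged 13.2 RPM and 22.6 RPM (−0.74 ± 0.27, adjusted p = 0.0380, both limma). In that fit 28.1% of all tested miRNAs were called, 10 higher and 104 lower, so being called lower was common. The fit used the deposited scaling, and these 2 calls were not tested under another scaling. The lowest adjusted p of the 6 entries at this step ranged between 0.0380 and 0.376 over 20 alternatives.

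**Figure D3:**
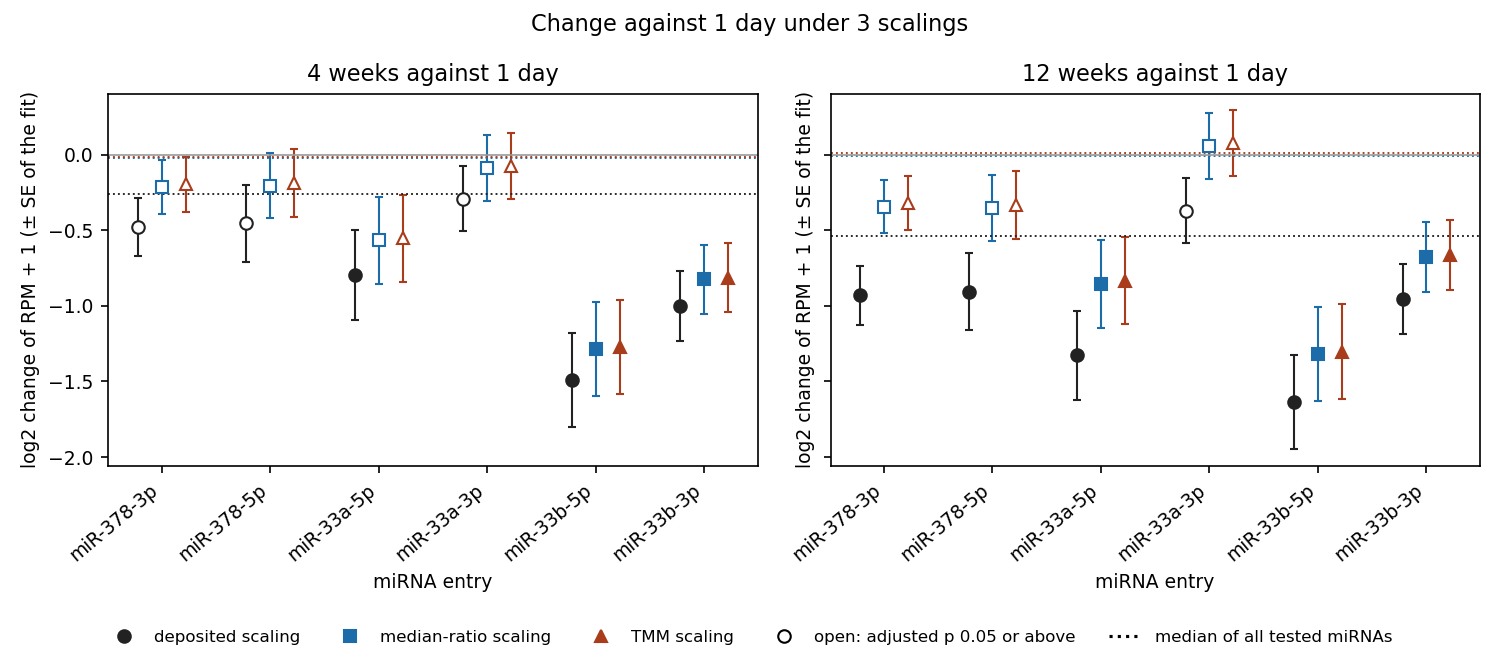
Log2 change of RPM + 1 (± SE of the fit) of each entry at 4 weeks (left) and 12 weeks (right) against 1 day under the deposited, median-ratio and TMM scalings. Open symbols have an adjusted p of 0.05 or above and dotted lines give the median of all tested miRNAs, which lies at −0.54 at 12 weeks in the deposited scaling; miR-33b-5p stays lowest under each scaling, and both miR-378 arms lose their 12-week call after rescaling.

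Within-library ratios set the members against each other and against miR-122 at 12 weeks and 1 day. 5 such ratios were compared, with exact two-sided permutation tests whose smallest possible p is 0.00794 and Benjamini-Hochberg adjustment over the 5. The log2 ratio of miR-33a-5p to miR-122 was −15.34 ± 0.48 at 12 weeks and −13.92 ± 0.50 at 1 day, a difference of −1.42 (exact permutation p = 0.00794, adjusted 0.0397), and 5 of 5 libraries of 12 weeks lay below every 1-day library. That of miR-378-3p to miR-122 was −8.14 ± 0.55 at 12 weeks and −7.12 ± 0.33 at 1 day, a difference of −1.02 (exact permutation p = 0.0159, adjusted 0.0397), with 4 of 5 below. Adjusted over all 7 ratios that were run, 2 of them added later, neither passed (0.0556 each, exact permutation). Both differences are independent of the scaling apart from the 1 RPM added to each term, which weighs most on the scarce miR-33a-5p. The difference of miR-33a-5p ranged between −1.67 and −0.64 over 13 alternatives, pseudocounts of 0.1 and 10 RPM among them. miR-122 itself changed by 0.09 on the log2 scale, and the median of all tested miRNAs by −0.54. The share of all miRNAs whose ratio to miR-122 fell likewise was not computed. In RPM, all 5 libraries of 12 weeks lay below 1 day in 44.7% of tested miRNAs. With 1 library left out only the tests without 1-day replicate 1 and without 12-week replicate 4 passed. Leaving out any other library gave an adjusted exact permutation p of 0.0794, at differences of −1.60 to −1.25 for miR-33a-5p and −1.23 to −0.87 for miR-378-3p over all 10. With 5 libraries against 4 the exact p cannot go below 0.0159, so a lost call there says little.

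The members were not separated from each other by these ratios. miR-378-3p over miR-33a-5p differed by 0.40 (7.196 ± 0.80 at 12 weeks and 6.80 ± 0.71 at 1 day, exact permutation p = 0.421, adjusted 0.526). miR-33a-5p over miR-33b-5p differed by 0.31 (1.34 ± 0.27 at 12 weeks and 1.03 ± 0.45 at 1 day, exact permutation p = 0.222, adjusted 0.370). With a pseudocount of 0.1 RPM the second difference was 1.23 and passed (exact permutation, adjusted p = 0.0397), and with 10 RPM it was −0.14, so its size and sign depend on how values near 0 are treated. A p above the threshold does not show that these miRNAs changed alike.

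The arm share of miR-33a was lower on average at the later ages, a difference that did not pass the test after adjustment. The 5p arm held 71.8% ± 9.86 of the reads of both arms at 1 day, 62.0% ± 9.54 at 2 weeks, 64.5% ± 7.33 at 4 weeks, 54.2% ± 4.41 at 8 weeks and 55.2% ± 9.92 at 12 weeks (SD, n = 5 each). The log2 ratio of miR-33a-5p to miR-33a-3p was 0.24 ± 0.41 at 12 weeks and 1.19 ± 0.62 at 1 day, a difference of −0.96 with 3 of 5 libraries of 12 weeks below every 1-day library. This ratio was chosen after the values of the arms had been seen, and its exact permutation p of 0.0238 did not pass after adjustment over all 7 ratios (0.0556). For miR-33b the 5p share was 46.3% ± 29.8 at 12 weeks and 66.5% ± 21.1 at 1 day, with shares of 0% to 77.5% among the 12-week libraries, and the log2 ratio differed by −0.68 (exact permutation p = 0.183, adjusted 0.311 over 7). In 1-day replicate 3 the 5p arm of miR-33b held 31.8%, the lowest share of its age.

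**Figure D4:**
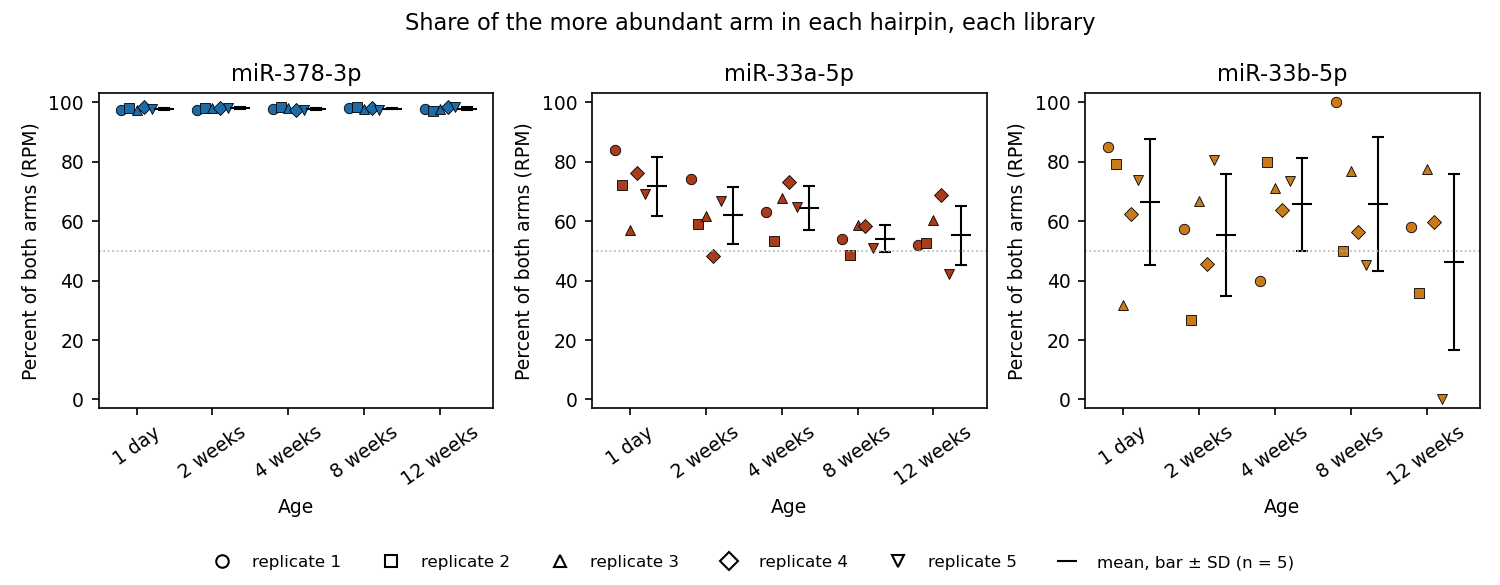
Percent of the reads of both arms held by miR-378-3p (left), miR-33a-5p (middle) and miR-33b-5p (right) in each of the 25 libraries by age, with the mean ± SD (n = 5). miR-378-3p stays between 97.04% and 98.5%, miR-33a-5p averages 71.8% at 1 day and 55.2% at 12 weeks, and miR-33b-5p spreads from 0% to 100% where few reads lie behind it.

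The miRNAs whose course was closest to a member were found by the root mean square difference in log2(RPM + 1) over the 25 libraries, each miRNA centred on its own mean, among miRNAs of at least 10 RPM. The closest to miR-378-3p were miR-378-5p (0.239), let-7d-3p (0.260), miR-224-5p (0.289), miR-106b-3p (0.297) and miR-148b-3p (0.304), against a median of 0.469 over the 274 compared. let-7d-3p averaged 30.7 ± 3.65 RPM at 12 weeks and 51.8 ± 11.7 RPM at 1 day, and miR-224-5p 424 ± 68.9 RPM and 744 ± 132 RPM (SD, n = 5 each). Closest to miR-33a-5p were miR-324-5p (0.385), miR-362-3p (0.399), miR-98-3p (0.404), miR-1307-5p (0.405) and miR-18a-5p (0.407), against a median of 0.636 over 275. miR-18a-5p averaged 65.0 ± 16.9 RPM at 12 weeks and 216 ± 32.1 RPM at 1 day (SD, n = 5 each).

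All distances share the libraries' depth and scaling, and scarce miRNAs carry counting noise into them. Between members, miR-33b-5p lay 0.488 from miR-33a-5p, rank 7 among the tested miRNAs seen from miR-33b-5p and rank 28 seen from miR-33a-5p. miR-378-3p lay 0.574 from miR-33a-5p, rank 294 seen from miR-378-3p and rank 94 seen from miR-33a-5p.

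Other miRNAs linked in earlier work to liver lipid control, a list that leaves out miR-33 and miR-378, did not move in one direction. Of 34 tested entries at 12 weeks against 1 day, 7 were called higher and 13 lower, with a median change of −0.15, beside 47 higher, 222 lower and −0.54 for all 405. Among its 3 most abundant entries, miR-122 changed by 0.09 (adjusted p = 0.512), miR-143-3p by −0.15 (adjusted p = 0.490) and miR-148a-3p, a repressor of the LDL receptor, by 0.10 (adjusted p = 0.479, all limma). Some of its entries, among them miR-122 and miR-143, are on the cell type lists as well. After median-ratio scaling the list had 14 higher and 6 lower with a median of 0.39.

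A list of miRNAs linked to brown fat and mitochondria had 18 tested entries, of which 9 were called higher and 5 lower at 12 weeks, with a median change of 0.37. Among all 405 tested miRNAs 11.6% were called higher and 54.8% lower, with a median of −0.54. Its most abundant entry, miR-30b-5p, rose to 3668 ± 674 RPM at 12 weeks, against 2731 ± 418 RPM at 1 day (log2 change 0.42 ± 0.13, adjusted p = 0.00536, limma). miR-23a averaged 3200 RPM at 12 weeks and 2822 RPM at 1 day (adjusted p = 0.207, limma). miR-494 fell to 498 ± 51.0 RPM at 12 weeks, against 1094 ± 145 RPM at 1 day (−1.13 ± 0.18, adjusted p = 5.44e-06, limma). Of the 9 entries called higher, 3 were arms of miR-133a and miR-133b, which are also on the striated muscle list. So is miR-499-5p, 1 of the 5 called lower.

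Marker lists of other cell types moved with age beside the members. At 12 weeks against 1 day, 11.6% of all tested miRNAs were called higher and 54.8% lower. The striated muscle list, 4 of whose 6 tested entries were called higher and 1 lower, summed to 6194 to 13588 RPM at 12 weeks (median 8784) and 646 to 2186 RPM at 1 day (median 1298), mostly miR-1. The entry called lower was miR-499-5p, with 18.9 ± 1.29 RPM at 12 weeks and 48.9 ± 4.92 RPM at 1 day (SD). Its log2 change was −1.32 ± 0.17 (adjusted p = 3.69e-07, limma), against the direction of the list. The heart marker miR-208b of this list was near 0 (0.022 RPM at 12 weeks and 0.028 RPM at 1 day). miR-378 is also made in muscle, and the part of muscle RNA in its values was not tested. The erythroid list had 1 higher and 1 lower of 3 tested entries, with sums of 2733 to 4371 RPM at 12 weeks and 1382 to 2171 RPM at 1 day. The leukocyte list had 1 higher of 4, with sums of 482 to 809 RPM at 12 weeks and 343 to 456 RPM at 1 day.

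Of all tested miRNAs 54.8% were called lower, with a median of −0.54. The endothelial list, which holds only the 2 arms of miR-126, had 2 of 2 entries lower (median −0.46). Its sums were 22008 to 27997 RPM at 12 weeks and 27072 to 32834 RPM at 1 day, mostly miR-126-3p. The biliary list had 2 of 5 lower (median −0.51), with sums of 1103 to 1597 RPM at 12 weeks and 1387 to 3074 RPM at 1 day. The mesenchymal list had 1 of 8 lower (median −0.27), with sums of 96063 to 129961 RPM at 12 weeks and 112846 to 139881 RPM at 1 day. The hepatocyte list had 1 of 5 entries higher and none lower. The higher entry was the sheep-named miR-194 (3449 ± 97.5 RPM at 12 weeks and 2010 ± 94.8 RPM at 1 day, SD). The more abundant goat-named miR-194 had 43138 ± 2736 RPM and 43433 ± 1432 RPM (log2 change −0.01, adjusted p = 0.918, limma). In whole liver, fewer cells of a type and less RNA per cell cannot be told apart, and the part of these cell types in the members' values was not tested.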

How the data were processed

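Small RNA of 25 goat kid liver libraries was analysed from 1 deposited table. Its values are taken as RPM, the reads of each miRNA scaled by the authors to a library total: no label or header names the unit, and it was read from the deposited values, whose columns sum to between 1010981 and 1018216 and whose low values were whole multiples of 1 read to within 0.1 read in 100% of cases. The submitters' processing notes list Bowtie 1.1.1. Build, annotation, trimming and the treatment of reads with several matches: not given in the sources used here. RNA was taken from frozen liver with Trizol and put through a stranded total RNA kit, per the labels' protocols.

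Values were taken as log2(RPM + 1), entries with at least 1 RPM in at least 5 libraries were kept (405 of 463, 58 left out), and limma 3.58.1 (R 4.3.3) was fitted over the 25 libraries, 1 mean for each age, its variance trend depending on mean level. Each later age was compared with 1 day and with the age before, in 7 contrasts, and an F test covered the 5 ages. P-values were adjusted by Benjamini-Hochberg over all tested miRNAs. Ratios within a library were compared by exact permutation (scipy 1.17.1). Read numbers are estimates from the value of 1 read and were used only to describe depth. The code was tested on simulated data. No 2 libraries of an age agreed within sampling noise.

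All miR-33 and miR-378 entries are named, as are the 5 miRNAs closest to the most abundant entry of each number, and up to 3 of the most abundant tested entries of each list. miR-208b and the sheep-named miR-194 were named after their values were seen. The members and lists were chosen with earlier results of these data known. Alternatives were median-ratio and TMM scaling, other filters and pseudocounts, the replicate number as a block, fits to only the ages compared, leaving out libraries, and summing goat- and sheep-named entries. Work also used Python 3.11.15, numpy 2.4.6, pandas 2.3.3 and matplotlib 3.10.9.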

Additional observations from a re-analysis of the deposited data

Results flagged for a closer look

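Of 65 groups of 5 libraries examined (each entry and each ratio at each age), 8 held a library whose gap to its nearest neighbour exceeded 0.71 of the group's range. Chance flags about 1 in 20 groups. 3 of the 8 were in ratios.

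At 1 day, replicate 3 stood high in miR-378-5p (37.38 RPM, next 23.8 RPM) and in miR-33b-3p (4.25 RPM, next 1.68 RPM). The same library was the highest of its age in miR-378-3p, the lowest in miR-33a-5p and miR-33b-5p, and the shallowest of all 25. At 2 weeks, replicate 3 stood high in miR-33a-3p (4.15 RPM, next 2.47 RPM), and replicate 1 stood low in the log2 ratio of miR-378-3p to miR-378-5p (5.16, next 5.55). At 4 weeks, replicate 5 stood high in miR-33b-5p (1.67 RPM, next 0.72 RPM). At the same age replicate 1 stood low in the log2 ratio to miR-122 of both miR-378-3p (−7.93, next −7.61) and miR-33a-5p (−15.32, next −14.63). At 8 weeks, replicate 4 stood high in miR-33a-5p (5.14 RPM, next 2.56 RPM).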

How the results depend on the processing

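Of 1103 values recomputed for 82 results, 956 kept their direction and their side of the threshold, or their size. Median-ratio scaling gave log2 changes against 1 day of −0.81 for miR-33a-5p and −0.89 for miR-33b-5p at 2 weeks, −0.57 for miR-33a-5p at 4 weeks, −0.49 for miR-378-5p at 8 weeks, and −0.35 for miR-378-3p and −0.36 for miR-378-5p at 12 weeks, none of them called any longer, and 0.057 for miR-33a-3p at 12 weeks, which reversed. TMM scaling gave −0.80, −0.88, −0.55, −0.45, −0.32 and −0.33 for the same 6 calls, also lost, −0.41 for miR-378-3p at 8 weeks (adjusted p = 0.0611, limma, range over 19 alternatives 0.000317 to 0.0611), and 0.075 for miR-33a-3p. The F test's adjusted p was 0.174 for miR-378-3p and 0.251 for miR-378-5p after median-ratio scaling, and 0.248 and 0.320 after TMM scaling (limma). The lipid list had 14 higher and 6 lower with a median of 0.39 after median-ratio scaling, and 15, 6 and 0.41 after TMM scaling; the median of the brown fat list was 0.91 and 0.94. At 12 weeks against 8 weeks median-ratio scaling called 2 miRNAs. At 12 weeks against 1 day the split was 47 higher and 222 lower in the deposited scaling, and 117 and 132 after median-ratio scaling. Calls of miR-33b-5p at 4, 8 and 12 weeks and of miR-33a-5p at 8 and 12 weeks held under both scalings.

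A pseudocount of 0.1 RPM gave −1.17 for miR-33a-5p and −1.68 for miR-33b-5p at 2 weeks and −0.90 for miR-33a-5p at 4 weeks, no longer called, a ratio difference of 0.025 for miR-378-3p over miR-378-5p (reversed) and one of 1.23 for miR-33a-5p over miR-33b-5p (now called). A pseudocount of 10 RPM called 46 miRNAs at 2 weeks and reversed the differences of miR-378-3p over miR-33a-5p (−0.37) and of miR-33a-5p over miR-33b-5p (−0.14). A mean of at least 10 RPM left out the 4 miR-33 entries, called miR-378-3p at 4 weeks (−0.48) and left 5 of the brown fat list higher. Fits to only the ages compared lost miR-33a-5p (−1.0) and miR-33b-5p (−1.08) at 2 weeks, called miR-378-3p at 4 weeks (−0.48), and called 0, 3 and 3 miRNAs at the steps 4 against 2, 8 against 4 and 12 against 8 weeks. With 4 weeks reduced to replicates 3, 4 and 5, miR-33a-5p at 4 weeks was no longer called (−0.53), and 2 entries were called at 8 weeks against 4 weeks. In that fit 28.1% of all tested miRNAs were called at the latter step, 10 higher and 104 lower. Adjusting over all 7 ratios instead of 5 lost both ratios to miR-122 (−1.02 and −1.42). The cause of these changes was not tested.

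The replicate number as a block lost miR-33a-5p at 2 weeks (−1.0, adjusted p = 0.0604) and 4 weeks (−0.80, adjusted p = 0.0530, limma; ranges over all alternatives 0.0176 to 0.142 and 0.0118 to 0.276). The labels do not say whether the numbers pair the libraries. Deviations of same-numbered libraries had a median correlation of −0.03 over 50 pairs (−0.42 to 0.33), and 4 of 25 libraries correlated best with their own number. No clear pairing was seen, but a weak one could be missed by these correlations.

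Leaving out 1 library gave −1.19 to −0.78 for miR-33a-5p and −1.30 to −0.86 for miR-33b-5p at 2 weeks and −0.98 to −0.66 for miR-33a-5p at 4 weeks, each called in 5 of 10 fits. For miR-378-3p it gave −0.55 to −0.39 at 4 weeks (called in 3 of 10) and −0.67 to −0.47 at 2 weeks, for miR-378-5p −0.82 to −0.49 at 2 weeks, and for miR-33a-3p −0.56 to −0.27 at 12 weeks (each called in 1 of 10). The F test's adjusted p of miR-378-5p ranged between 0.00431 and 0.0589 (limma). Ratio differences ranged between −1.23 and −0.87 for miR-378-3p over miR-122, between −1.60 and −1.25 for miR-33a-5p over miR-122, and between −0.12 and 0.10 for miR-378-3p over miR-378-5p, which reversed in 3 of 10. At 8 and 12 weeks the calls of miR-33a-5p, miR-33b-5p and both miR-378 arms held in 10 of 10 fits.

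Tests on counts were not run, since the deposited values are normalized and the read numbers behind them are estimates. Summing goat- and sheep-named entries, and leaving out the highest miR-378-3p library of 1 day and of 12 weeks (chosen after seeing the data), changed no call of a member. Depth limits the miR-33b arms, which after 1 day rest on an estimated 0 to 25 reads per library for the 5p arm and 0 to 12 for the 3p arm.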
